A study of Mus musculus with 8 samples.

Results

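Purine breakdown and urate handling was described here through 8 genes, Nt5e, Ada, Adk, Xdh, Uox, Slc2a9, Aox1 and Aox3. They were taken by symbol from the 52195 genes of a bulk RNA sequencing table, and all 8 were found in it and passed the filter on low values. The table held 8 libraries of polyadenylated RNA from whole kidney, lung, liver and small intestine, 2 libraries per tissue, of normal male C57BL/6J mice aged 6 to 10 weeks, which the labels give as C57BL/6. This is an inbred laboratory strain, no animal was treated, and the 2 libraries of a tissue came from separate mice. Each mouse gave all 4 tissues, so libraries of different tissues can share a mouse, but which of them do is not stated. The study made the libraries to estimate the mix of cell types in whole tissue, and the question asked here is in which of the 4 tissues each step of purine breakdown was expressed. Levels are in FPKM, the fragments per kilobase of transcript scaled by library size, so that genes of different length can be set side by side.

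Purines are broken down step by step, first to adenosine, then to inosine and hypoxanthine, and at last to urate. Nt5e makes adenosine from AMP outside cells, Ada and Adk compete for that adenosine, Xdh makes urate, and Uox, which mice have and humans have lost, carries urate on towards allantoin. The liver is the main site of urate oxidation in mice, the kidney handles the urate and allantoin that are excreted, and the intestine meets the nucleic acids of food. Aox1 and Aox3 encode aldehyde oxidases, relatives of Xdh that use the same molybdenum cofactor and oxidise aldehydes and drugs.

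The depth was between 9164187 and 21444675 reads counted on genes per library. The markers of the labelled tissues were high where they should be. The summed FPKM of 5 hepatocyte markers was at least 33130 in the liver libraries and at most 702 elsewhere. That of 5 enterocyte markers was at least 10257 in small intestine and at most 67.7 elsewhere, that of 5 proximal tubule markers at least 16343 in kidney and at most 87.4 elsewhere, and that of 4 markers of alveolar type 2 cells at least 14193 in lung and at most 19.8 elsewhere. Small intestine also held markers of pancreatic acinar cells, at a summed FPKM of 2184 and 1003 for 6 markers, against at most 5.03 in the other tissues. Over all 16328 genes tested, the median log2 difference of lung from the mean of the other 3 tissues was 0.82, that of liver -0.72, that of kidney -0.34 and that of small intestine -0.01. A log2 difference of a gene is therefore best read beside these medians.

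The promoters of the 4 genes with the steepest pattern across tissues are shown, because Ada and Uox were each high in a single tissue and Aox1 and Aox3 were high in the same pair. Each sequence is a RefSeq window of 300 bases, from 250 before to 50 after the start site, on build GRCm38.p6 and in the direction of the gene, with CG pairs in capitals. A RefSeq window was matched for 7 of the 8 genes, all but Xdh.
Ada promoter, chr2:163750190-163750489, minus strand: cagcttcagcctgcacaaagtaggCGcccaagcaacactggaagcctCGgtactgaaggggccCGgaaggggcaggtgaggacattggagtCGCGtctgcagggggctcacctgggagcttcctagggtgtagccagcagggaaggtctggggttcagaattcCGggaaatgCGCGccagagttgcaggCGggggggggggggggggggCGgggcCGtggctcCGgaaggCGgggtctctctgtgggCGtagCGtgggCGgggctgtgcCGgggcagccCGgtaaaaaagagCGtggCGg
Uox promoter, chr3:146596899-146597198, plus strand, inside the GENCODE gene: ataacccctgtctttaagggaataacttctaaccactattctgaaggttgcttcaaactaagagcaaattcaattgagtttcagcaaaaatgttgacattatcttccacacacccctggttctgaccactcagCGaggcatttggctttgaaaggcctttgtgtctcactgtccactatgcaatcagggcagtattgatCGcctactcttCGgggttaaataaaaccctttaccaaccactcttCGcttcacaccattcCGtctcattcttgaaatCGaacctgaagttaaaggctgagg
Aox1 promoter, chr1:58029719-58030018, plus strand: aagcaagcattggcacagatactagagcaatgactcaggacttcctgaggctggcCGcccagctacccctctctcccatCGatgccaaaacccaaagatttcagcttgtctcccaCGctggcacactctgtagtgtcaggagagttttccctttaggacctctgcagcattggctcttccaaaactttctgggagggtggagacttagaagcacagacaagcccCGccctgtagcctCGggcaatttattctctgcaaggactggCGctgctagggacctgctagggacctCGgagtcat
Aox3 promoter, chr1:58112886-58113185, plus strand: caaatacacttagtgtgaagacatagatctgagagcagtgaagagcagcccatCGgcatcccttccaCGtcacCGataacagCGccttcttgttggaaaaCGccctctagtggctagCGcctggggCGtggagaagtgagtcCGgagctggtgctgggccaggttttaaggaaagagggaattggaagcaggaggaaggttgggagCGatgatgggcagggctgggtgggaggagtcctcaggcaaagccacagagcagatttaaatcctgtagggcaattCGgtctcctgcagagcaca

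The Ada window held 20 CG pairs at a GC content of 68.0%, and the Uox window 6 at 43.0%. Aox1 had 7 CG pairs at 54.3% and Aox3 had 10 at 55.0%. The median over 32851 RefSeq promoters was 7 CG pairs and a GC content of 52.7%, so the Ada window lay far above it and Uox had the lowest GC content of the 4. The Nt5e window held 23 CG pairs, the windows of Adk, which has 2 RefSeq starts, held 21 and 33, and that of Slc2a9 held 2. Both strands of the windows were searched for 6 short motifs. CCAAT, the CCAAT box, occurred in Ada at position -167 from the start site, in Aox1 at -242 and -82, and in Aox3 at -70, and 37.4% of all promoters hold it. The letters AGATAA, known from sites of GATA factors, occurred in Uox at -152 and are held by 11.2% of all promoters. The other motifs were not among the letters of these 4 windows. They were TATAAA, the TATA box, which 13.6% of all promoters hold, the letters GTTAAT, held by 7.1%, the letters CAAAGTCCA, held by 0.475%, and the letters TTTATG, held by 11.9%. No match overlapped another.

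Nt5e (ENSMUSG00000032420.8, GRCm38 chr9:88327197-88372092, plus strand) encodes the enzyme of the cell surface that removes the phosphate of AMP. Kidney gave an FPKM of 13.7 and 12.3 for its 2 libraries, lung 9.83 and 11.5, small intestine 2.07 and 3.15, and liver 1.32 and 0.833. Kidney and lung were high and liver low, and the ranges of no 2 tissues overlapped. On the log2(FPKM + 1) scale, kidney was 1.66 above the mean of the other 3 tissues (standard error 0.18, Benjamini-Hochberg adjusted p = 0.000168 by limma) and liver 2.02 below it (log2 difference -2.02, adjusted p = 4.74e-05). Kidney and lung, neighbours in that order, differed by 0.26 (standard error 0.22, adjusted p = 0.301), a difference that turned to -0.15 when all libraries were given the same sum of FPKM and was called, at 1.26, after median-of-ratios scaling. Lung was 4.08-fold above small intestine (log2 difference 1.70, adjusted p = 0.000296), and this call was lost under median-of-ratios scaling at 0.99. Small intestine and liver differed by 0.79 (adjusted p = 0.0156), below the threshold of 1 on the log2 difference. In bulk tissue, fewer cells of a type and less RNA per cell cannot be told apart, here and for each gene that follows. All 5 endothelial markers were above the level of 3 reads in every library, with a summed FPKM of 300 and 355 in lung and between 7.88 and 25.5 elsewhere, and all 4 fibroblast markers were highest in lung too, with sums of 192 and 169 against 6.70 to 36.2. The endothelial sum was 25.5 and 16.1 in kidney, and at most 11.7 in liver and small intestine. The fibroblast sum was 10.4 and 6.70 in kidney, and at least 30.1 in liver and small intestine. The part of either cell type in the level of Nt5e was not tested.

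Ada (ENSMUSG00000017697.3, GRCm38 chr2:163726584-163750239, minus strand) encodes adenosine deaminase, which turns adenosine into inosine and so commits it to breakdown. Its FPKM was 205 and 200.4 in small intestine, 5.22 and 3.90 in lung, 0.978 and 0.693 in kidney, and 0.654 and 0.581 in liver. The small intestine held 97.1% of the summed tissue means, and Ada ranked 262 and 248 among all genes of those libraries. This was 44.4-fold above lung, the next tissue (log2 difference 5.20, standard error 0.18, adjusted p = 6.68e-07), and 6.33 above the mean of the other 3 tissues on the log2(FPKM + 1) scale (standard error 0.15, adjusted p = 1.88e-07). By that difference Ada was at rank 107 of the 16328 genes tested. The 4 other scalings gave between 6.06 and 6.30. Lung exceeded kidney 5.46-fold (log2 difference 1.59, adjusted p = 0.000133), but the call was lost under median-of-ratios scaling, at -0.81 as kidney minus lung, and under quantile normalization. Kidney and liver did not differ beyond their spread (log2 difference 0.18, adjusted p = 0.493), although their ranges did not overlap, and the sign turned under those same scalings. The liver values rest on 12 reads in each library. Enterocyte markers were also highest in small intestine, 5 of 5 above 3 reads in each library and their sum at least 10257, and so were the acinar markers given above. Elsewhere the enterocyte sum was highest in liver, at 58.9 and 67.7, where Ada was lowest, and it was 24.1 and 5.34 in lung. Between the small intestine libraries the acinar sum went from 2184 to 1003, with Ada at 205 and 200.4. The summed FPKM of 4 T cell markers was 28.4 and 34.4 in lung, the tissue with the second highest Ada, 11.3 and 10.4 in small intestine, and at most 0.514 in kidney and liver. Their part in the Ada level was not tested.

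Adk (ENSMUSG00000039197.10, GRCm38 chr14:21052574-21448569, plus strand) encodes adenosine kinase, which returns adenosine to AMP. Its FPKM was 49.2 and 46.7 in liver, 11.6 and 11.5 in kidney, 9.67 and 9.81 in lung, and 5.02 and 5.69 in small intestine. Liver was high and small intestine low, with no overlap between any pair of tissues, and the lowest tissue for Adk was the highest for Ada. Adk was expressed in every tissue, with the liver holding 64.3% of the summed tissue means. Liver exceeded kidney 4.15-fold (log2 difference 1.96, standard error 0.14, adjusted p = 2.13e-05) and stood 2.37 above the mean of the other 3 tissues (standard error 0.11, adjusted p = 2.21e-06). Small intestine was lower than the mean of the other 3 (log2 difference -1.56, adjusted p = 1.9e-05). Kidney and lung differed by 0.23 (adjusted p = 0.173), which became 1.21 and a call under median-of-ratios scaling and -0.18 with the same sum of FPKM, and lung and small intestine differed by 0.76 (adjusted p = 0.00203), below the threshold of 1.

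The balance of the RNA of these genes within a library does not depend on the scaling between libraries. It does depend on the exon length by which FPKM divides each gene. The ratio of Ada to Adk in FPKM was 40.7 (95% interval 36.7 to 45.3) and 35.2 (32.2 to 38.6) in the small intestine libraries. It was 0.540 and 0.398 in lung, 0.0841 and 0.0603 in kidney, and 0.0133 and 0.0124 in liver. Ada thus stood above Adk in small intestine and below it in the other 3 tissues, and the ranges of the 4 tissues did not overlap. The intervals are exact binomial intervals of the reads behind the values and cover counting error only. The ratio of Ada to Nt5e was 98.7 and 63.6 in small intestine and between 0.0564 and 0.697 in the other 6 libraries, so that Ada stood above Nt5e in both libraries of small intestine and below it in the others, although the 95% interval of liver replicate 2 reached 1.29.

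**Figure D1:**
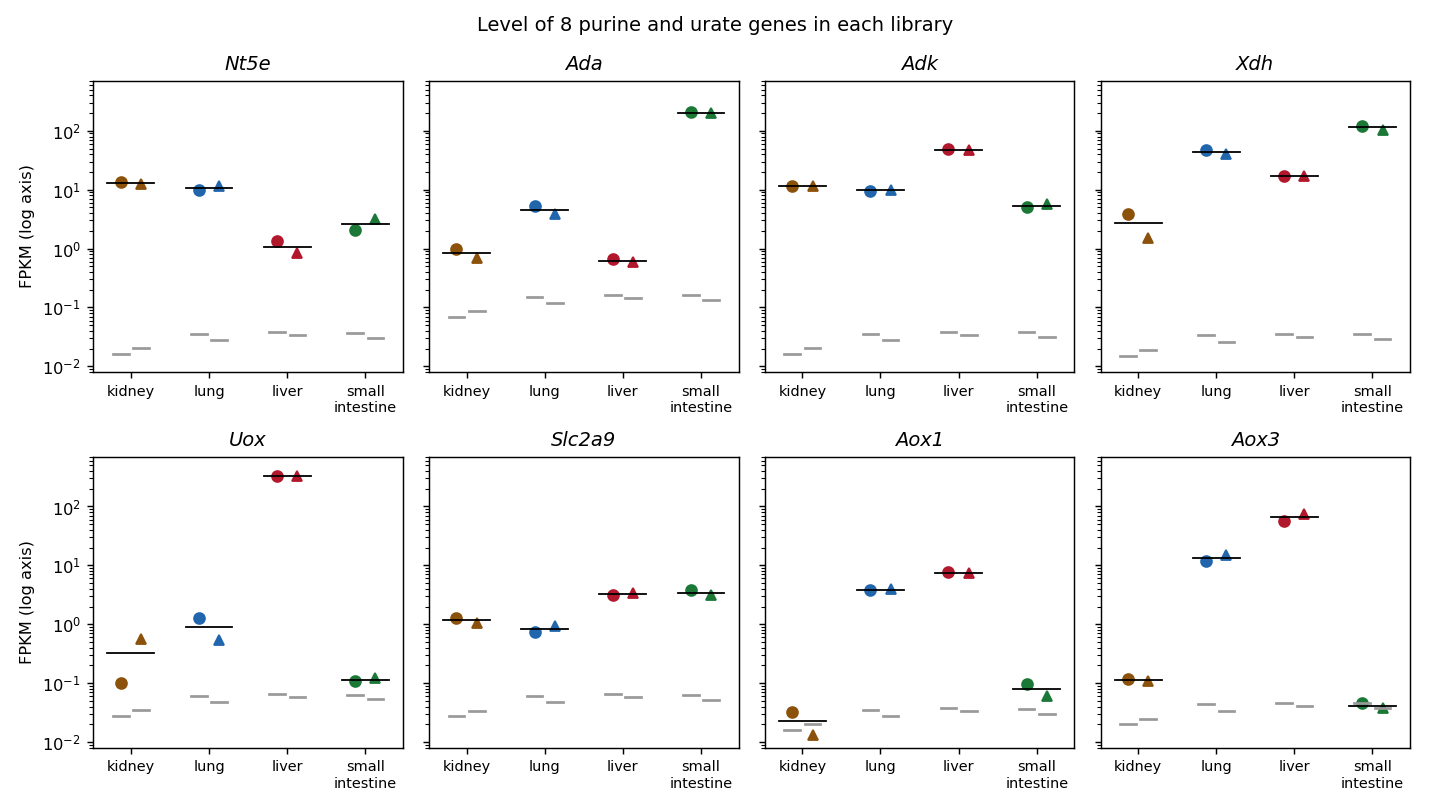
FPKM of each gene (log axis) in the 4 tissues, with circles for replicate 1, triangles for replicate 2, black lines for the mean of the 2 libraries and grey lines for the FPKM that 3 reads would give in that library. Ada is at 205 and 200.4 in small intestine and Uox at 329 and 331 in liver, Adk and Slc2a9 are spread over the 4 tissues, and Aox1 and Aox3 are at most 0.119 in kidney and small intestine.

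Xdh (ENSMUSG00000024066.9, GRCm38 chr17:73883895-73950196, minus strand) encodes xanthine dehydrogenase, which oxidises hypoxanthine to xanthine and xanthine to urate. Small intestine had an FPKM of 123 and 105, lung 47.2 and 40.9, liver 17.0 and 17.2, and kidney 3.90 and 1.54. The tissues did not overlap, and the widest gap in proportion between 2 libraries of a tissue was that of kidney. Small intestine exceeded lung 2.59-fold (log2 difference 1.35, standard error 0.29, adjusted p = 0.00438), a call that the same sum of FPKM ended, at -0.99 as lung minus small intestine. It stood 3.01 above the mean of the other 3 tissues (standard error 0.23, adjusted p = 2.83e-05). The order of lung and liver depends on the scaling, since the log2 difference of 1.31 (adjusted p = 0.0034) became -0.28 after median-of-ratios scaling and 0.55 after quantile normalization. Kidney was lowest, 6.29-fold below liver in the ratio of the means (log2 difference 2.36, adjusted p = 0.000448), and remained so under each of the 4 other scalings. Of the 31-base words of the Xdh transcripts, 14.4% also occur in transcripts of other genes, against at most 1.32% for the other 7 genes, so some Xdh reads may have been placed with less certainty.

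Uox (ENSMUSG00000028186.14, GRCm38 chr3:146570426-146632305, plus strand) encodes urate oxidase of the peroxisome. Its FPKM was 329 and 331 in liver, 1.27 and 0.530 in lung, 0.102 and 0.554 in kidney, and 0.107 and 0.123 in small intestine. The liver libraries were nearly equal and held 99.6% of the summed tissue means, with Uox at ranks 146 and 141 of all genes. Outside the liver the libraries of a tissue differed by more than 2-fold in lung and 5-fold in kidney, and the ranges of kidney overlapped those of lung and of small intestine. Liver was 367-fold above lung (log2 difference 7.47, standard error 0.25, adjusted p = 3.38e-07) and 7.89 above the mean of the other 3 tissues (standard error 0.20, adjusted p = 1.05e-07), which put Uox at rank 54 of the 16328 genes. Of the other 3 tissues, lung was 0.51 above kidney (adjusted p = 0.0968) and kidney 0.23 above small intestine (adjusted p = 0.484), neither of them beyond the spread. Lung exceeded small intestine without overlap, by 0.74 (standard error 0.25, adjusted p = 0.0313), which is below the threshold of 1. These low values rest on 62 and 33 reads in lung, 11 and 48 in kidney, and 5 and 7 in small intestine, against 15114 and 17101 in liver. The 5 hepatocyte markers were split outside the liver. Alb, which encodes albumin, was at 69.0 and 39.0 in lung, 15.5 and 40.7 in kidney, and 10.8 and 12.9 in small intestine, against 34646 and 29371 in liver. Tat, a liver enzyme of tyrosine breakdown, was at 2.47 and 1.27, 0.291 and 1.32, and 0.222 and 0.330 in the same libraries. The other 3 had another order, with Cps1 at 85.0 and 75.7 and Apoc3 at 603 and 498 in small intestine, where Uox was lowest, and Cyp2e1 at 428 and 347 in kidney. The library of a tissue with more Uox had more of 5 of the 5 markers in lung, of 4 in kidney and of 2, Alb and Tat, in small intestine. All 5 were above 3 reads in every library, with a sum of 91.4 and 52.0 in lung, 448 and 396 in kidney, and 702 and 589 in small intestine. Markers of other tissues also differed between these libraries. Sums in lung were 24.1 and 5.34 for enterocyte and 87.4 and 20.0 for proximal tubule markers. In kidney they were 5.09 and 14.9 for alveolar type 2 and 4.31 and 11.9 for enterocyte markers. In small intestine, alveolar type 2 markers rose from 4.93 to 6.05 and proximal tubule markers fell from 26.1 to 23.0. The part of any of these markers in the low Uox values was not tested.

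The ratio of Uox to Xdh, the enzyme that uses urate over the enzyme that makes it, was 19.4 (95% interval 18.4 to 20.5) and 19.2 (18.2 to 20.2) in liver. It was 0.0268 and 0.0130 in lung, 0.0262 and 0.360 in kidney, and 0.000867 (0.000282 to 0.00202) and 0.00117 (0.000472 to 0.00242) in small intestine. Uox stood above Xdh in liver and below it in the 6 other libraries. The kidney libraries lay far apart, and the range of kidney overlapped that of lung. In kidney replicate 2, both the lower Xdh and the higher Uox moved the ratio up.

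**Figure D2:**
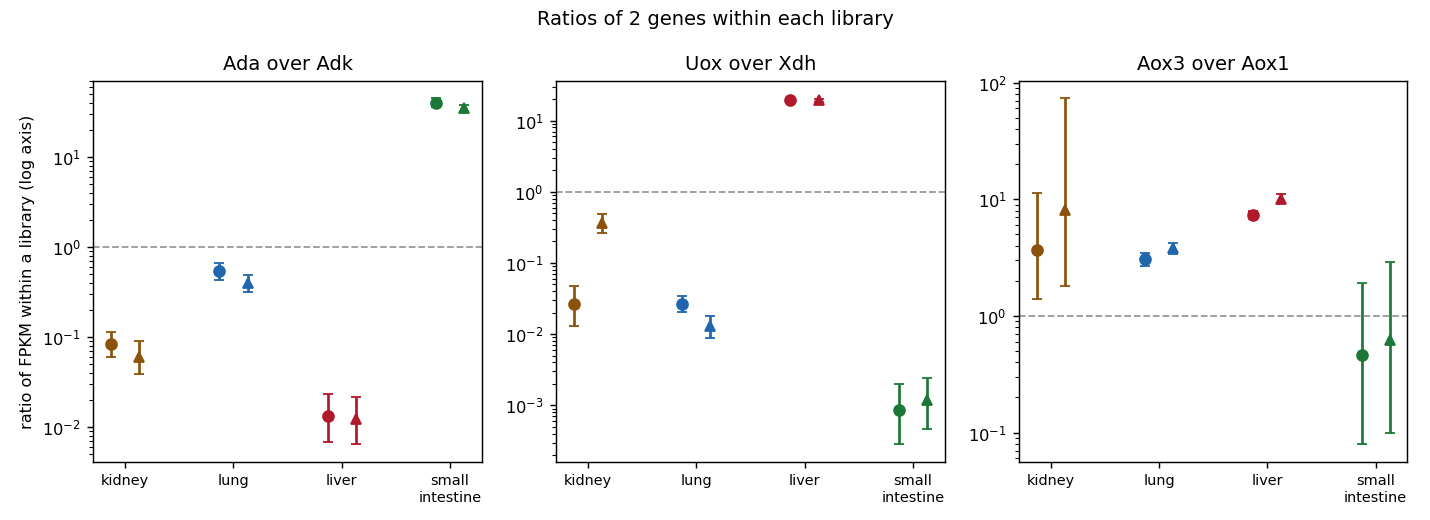
Ratio of FPKM of 2 genes within each library (log axis), for Ada over Adk, Uox over Xdh and Aox3 over Aox1, with circles for replicate 1, triangles for replicate 2 and bars for the exact 95% counting interval. The dashed line marks equal levels. Ada over Adk is above it in small intestine, at 40.7 and 35.2, and Uox over Xdh is above it in liver, at 19.4 and 19.2, and each is below it in the other tissues.

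Slc2a9 (ENSMUSG00000005107.13, GRCm38 chr5:38349273-38503143, minus strand) encodes a membrane carrier of urate. Its FPKM was 3.76 and 3.14 in small intestine, 3.20 and 3.45 in liver, 1.27 and 1.07 in kidney, and 0.725 and 0.934 in lung. Small intestine and liver overlapped, and both lay above kidney and lung. Slc2a9 had the flattest profile of the 8 genes, with 4.16-fold between the highest and the lowest tissue mean, and it was not called in any tissue against the mean of the other 3. The largest of these differences was -0.92 in lung (standard error 0.14, adjusted p = 0.000543), and that of small intestine was 0.79 (adjusted p = 0.00227). Of the 4 other scalings, 3 called lung lower, down to -1.59, and 2 called liver higher, up to 1.45. Between pairs of tissues, lung was called lower than liver (log2 difference -1.24, adjusted p = 0.000298) and than small intestine (log2 difference -1.28, adjusted p = 0.000386), as under all 4 scalings. Kidney was called lower than small intestine too (log2 difference -1.04, adjusted p = 0.00174), a call that held in 1 of the 4 scalings. The log2 difference of 0.04 between small intestine and liver (adjusted p = 0.87) changed sign under median-of-ratios scaling, with the same sum of FPKM and under quantile normalization. Liver exceeded kidney by 1.0 (adjusted p = 0.00269), just short of a call, and the difference was called in 3 of the 4 other scalings, with values from -1.5 to -0.64 as kidney minus liver. Kidney and lung differed by 0.25 (adjusted p = 0.228).

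Aox1 (ENSMUSG00000063558.4, GRCm38 chr1:58029931-58106413, plus strand) and Aox3 (ENSMUSG00000064294.12, GRCm38 chr1:58113130-58200698, plus strand) lie next to each other in the same direction. Aox1 was at an FPKM of 7.65 and 7.32 in liver, 3.84 and 3.93 in lung, 0.0983 and 0.0610 in small intestine, and 0.0322 and 0.0133 in kidney. Aox3 was at 56.1 and 74.3 in liver, 11.8 and 14.9 in lung, 0.119 and 0.107 in kidney, and 0.0456 and 0.0377 in small intestine. Both were high in liver, lower in lung and close to 0 in kidney and small intestine, and the ranges of the tissues did not overlap. Aox1 rested on 6 and 2 reads in kidney and 8 and 6 in small intestine, Aox3 on 18 and 13 in kidney and 3 in each small intestine library, and the value of Aox1 in kidney replicate 2 was the single value of the 64 below 3 reads. The order of kidney and small intestine was therefore not resolved for either gene (log2 difference 0.08, adjusted p = 0.706 for Aox1, and 0.10, adjusted p = 0.735 for Aox3), although limma-voom on the recovered reads called Aox1 lower in kidney, at -1.77 (adjusted p = 0.0373).

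Liver exceeded the mean of the other 3 tissues by 2.27 for Aox1 (standard error 0.12, adjusted p = 3.9e-06) and by 4.69 for Aox3 (standard error 0.16, adjusted p = 4.28e-07). Liver was 4.9-fold above lung for Aox3 (log2 difference 2.20, adjusted p = 3.13e-05) and 1.93-fold for Aox1 (log2 difference 0.80, adjusted p = 0.00143), where the threshold of 1 was passed only under median-of-ratios scaling and quantile normalization, at -2.15 and -2.06 as lung minus liver. Lung was 48.8-fold above small intestine for Aox1 (log2 difference 2.18, adjusted p = 1.07e-05) and 118-fold above kidney for Aox3 (log2 difference 3.68, adjusted p = 3.47e-06). Of the hepatocyte markers given above, Alb and Tat were higher in lung than in the kidney and small intestine libraries taken as means, while the sum over all 5 was lowest in lung, and their part in the lung level of both genes was not tested.

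The ratio of Aox3 to Aox1 was 7.33 (95% interval 6.73 to 8.01) and 10.1 (9.35 to 11) in liver, and 3.06 (2.69 to 3.49) and 3.79 (3.39 to 4.23) in lung. The liver ratios were above the lung ratios with no overlap. In kidney the ratio was 3.71 (1.41 to 11.4) and 8.03 (1.82 to 73.3), and in small intestine 0.463 (0.0792 to 1.93) and 0.618 (0.1 to 2.89). The kidney intervals are too wide to place that tissue, while both intervals of small intestine lie below those of liver, and the first of them also below those of lung. The longest coding stretches of Aox1 and Aox3, of 1333 and 1335 codons, were identical at 66.3% of 3983 aligned bases, and each was identical to Xdh at 59.6% and 60.0%. Of their 31-base words, 1.23% for Aox1 and 0.384% for Aox3 occur in other genes, so few of their words are shared with another gene. The remaining aldehyde oxidase genes, Aox2 and Aox4, were at most 0.037 and 0.0191 FPKM in any library and were not tested. The ratio of Aox3 to Xdh was 3.31 and 4.31 in liver, 0.249 and 0.363 in lung, 0.0306 and 0.0695 in kidney, and 0.00037 and 0.000358 in small intestine, so that Aox3 was above Xdh in liver alone among these tissues.

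A gene was called when its adjusted p was under 0.05 and its log2 difference from the mean of the other 3 tissues was over 1 in size. In kidney, 1 of the 8 genes was called higher, Nt5e, beside 8.65% of all genes tested. Another 5 were called lower, Ada, Xdh, Uox, Aox1 and Aox3, beside 16.1% of all genes. The median log2 difference of the 8 was -2.27 in kidney, against -0.34 over all genes. In small intestine 2 were called higher, Ada and Xdh, beside 13.7%, and 4 lower, Adk, Uox, Aox1 and Aox3, beside 11.3%, with a median of -1.26 against -0.01.

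In liver 4 genes were called higher, Adk, Uox, Aox1 and Aox3, beside 6.56% of all genes, and 2 lower, Ada and Nt5e, beside 32.7%, with a median of 1.5 against -0.72. In lung 4 were called higher, Xdh, Nt5e, Aox1 and Aox3, beside 40.7%, and 1 lower, Uox, beside 8.26%, with a median of 0.33 against 0.82. The share called higher in lung is near that of all genes, and it rests on the scaling, since median-of-ratios scaling gave 0 higher and 4 lower. Under that scaling 47.2% of all calls in lung were higher, against 83.1% as deposited, in liver 47.7% against 16.7%, and in kidney 49.2% against 35%, while the calls of the 8 genes were 5 higher and 2 lower in liver, 1 and 5 in kidney and 2 and 4 in small intestine.

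Between pairs of tissues, limma called 0 of the 8 genes higher in kidney than in lung, beside 8.87% of all genes, with 0 also at an unadjusted p under 0.05 and 0 by limma-voom, and 4 lower, beside 41.4%. Median-of-ratios scaling and quantile normalization each called 2 higher, Adk and Nt5e. For kidney against liver 1 was higher, beside 16.2%, and 5 lower, beside 6.90%. For kidney against small intestine 1 was higher, beside 10.7%, and 3 lower, beside 18.8%. Nt5e was the gene higher in kidney in both. Adk, at a log2 difference of 0.99, was also called higher in kidney than in small intestine in 3 of the 4 other scalings. Lung had 3 genes higher than liver, beside 55.5%, and 4 lower, beside 7.21%, the latter Adk, Uox, Slc2a9 and Aox3. The 3 higher fell to 1 under median-of-ratios scaling and under quantile normalization. Against small intestine, lung had 3 higher, beside 30.6%, and 3 lower, beside 10.1%. Liver had 4 genes higher than small intestine, beside 7.89%, and 2 lower, beside 28.3%. These comparisons share libraries and are not independent.

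**Figure D3:**
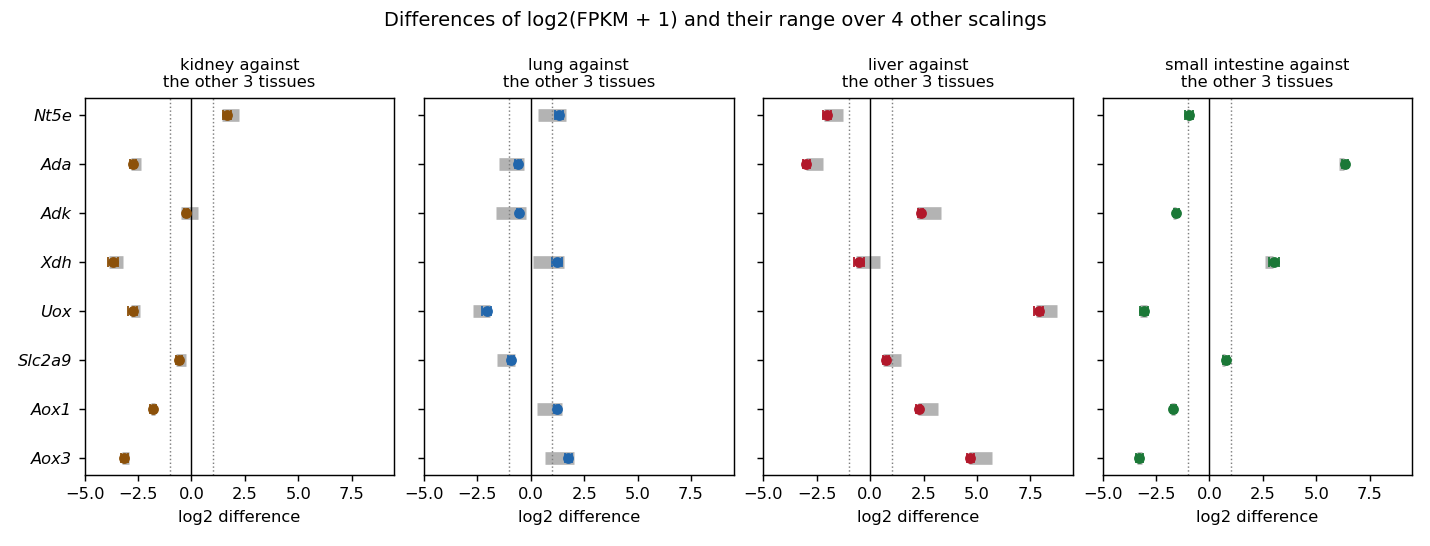
Log2 difference of log2(FPKM + 1) of each gene in each tissue from the mean of the other 3, with points for the fitted value, bars for its standard error and grey bands for the range over 4 other scalings between libraries. Dotted lines mark the threshold of 1. Ada in small intestine (6.33) and Uox in liver (7.89) lie far from 0 under every scaling shown, and the bands are widest in lung and liver.

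The genes around these 8 were taken from 10 lists of 79 genes, of which 70 were tested, and up to 4 of each list with the widest range are named. The counts of each list stand beside the shares of all genes called, which for higher and lower calls were 8.65% and 16.1% (kidney), 13.7% and 11.3% (small intestine), 6.56% and 32.7% (liver) and 40.7% and 8.26% (lung). Among 15 urate transporters and their scaffold, 12 were called higher in kidney and 2 lower, with a median log2 difference of 4.46. Slc22a12, which takes urate back from the tubule, was at 518 and 395 FPKM in kidney and at most 2.32 elsewhere (log2 difference 7.95, adjusted p = 7e-07). Slc17a1 was at 217 and 197 in kidney, Slc22a6 at 181 and 167 and Slc22a8 at 131 and 94.6, each at most 5.64 elsewhere. Slc2a9, Xdh and Uox were at most 3.90 in the same kidney libraries. Of the exon bases of Slc22a12, 30.1% overlap Nrxn2 on the other strand, and the use of strand in counting is not known. The sum of the 5 proximal tubule markers was highest in kidney too, at 16343 and 32429, against at most 87.4 elsewhere. It rose between the kidney libraries with Kap, at 15159 and 31665. The other markers of that list fell, as did Slc22a12, Slc17a1, Slc22a6 and Slc22a8. In every library 4 or 5 of the 5 markers reached 3 reads, and their part was not tested. In lung 13 of the 15 were lower, in liver 4 were higher and 8 lower, and in small intestine 3 were higher and 7 lower.

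Of 3 genes that act after Uox in the breakdown of urate, Urah and Urad were called higher in liver and Allc was listed at 0 in every library. Urah, the hydrolase of the next step, was at 31.7 and 34.1 FPKM in liver and at most 3.14 elsewhere (log2 difference 3.97, adjusted p = 1.05e-06). Urad, the decarboxylase that follows it, was at 7.98 and 9.61 in liver and at most 0.692 elsewhere (log2 difference 3.11, adjusted p = 4.06e-06). Both were lower in kidney and lung, and neither was called in small intestine. Of the exon bases of Urah, 12.4% overlap C330022C24Rik.

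In the list of purine base release and salvage, 3 of the 6 genes tested were called higher in small intestine. Gda, which deaminates guanine, was at 147 and 135 FPKM there and at most 5.09 elsewhere (log2 difference 5.58, adjusted p = 1.88e-07). Pnp2, a purine nucleoside phosphorylase, was at 106 and 81.4, against at most 4.16 elsewhere, and Pnp at no more than 0.133 in any library. Of the 31-base words of Pnp2, 39.0% occur in other genes, Pnp among them, so the split of reads between them is uncertain. Aprt, which salvages adenine, was at 106 and 84.0 in small intestine and between 11.1 and 24.5 elsewhere (log2 difference 2.36, adjusted p = 6.25e-06). Dguok, a kinase of deoxyguanosine, was at 11.2 and 11.9 in lung, and its call there (log2 difference 1.63) held in 2 of the 4 other scalings, with values down to 0.61. In liver 3 of the 6 were lower, beside 32.7% of all genes, among them Aprt, whose call there held in 2 of the 4 other scalings.

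Of 9 other genes for the breakdown of ATP and AMP outside cells, 5 were called higher in small intestine and 1 lower. In lung 1 was higher and 5 lower, and in kidney and in liver 1 was higher and 4 lower. The alkaline phosphatases Alpi and Akp3 were at 639.7 and 474, and at 210.5 and 176, FPKM in small intestine and at most 1.40 elsewhere. Both encode enzymes that can remove phosphate from AMP. Alpl, the phosphatase of other tissues, was at 63.7 and 50.2 in kidney and at most 2.22 elsewhere (log2 difference 4.70, adjusted p = 7.79e-07). Enpp3 was at 45.6 and 55.9 in small intestine and at most 8.87 elsewhere. Inside cells, 1 of 8 nucleotidases and AMP deaminases tested was higher in kidney, Nt5c2 at 12.0 and 7.58, and 2 in lung, Nt5c3b at 7.79 and 8.0 and Ampd3 at 6.79 and 6.48, the latter lost under quantile normalization at 0.96. Nt5c was higher in small intestine, at 44.9 and 28.8, and 4 of the 8 were lower in liver, beside 32.7% of all genes, where the calls of Nt5c, Nt5c2 and Nt5c3b held in 2 of the 4 other scalings.

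Of 3 adenosine receptors tested, Adora2b was higher in lung, at 5.72 and 6.02 FPKM (log2 difference 1.53, adjusted p = 2.28e-05), and in small intestine, at 6.02 and 5.79 (log2 difference 1.55, adjusted p = 4.15e-05). The call in lung held in 2 of the 4 other scalings, with values from 0.73 to 1.83. Adora2b was lower in liver, at 0.0591 and listed at 0. Adora2a reached 1.64 and 2.26 in lung and Adora1 reached 1.24 and 1.51 in liver, and neither was called in any tissue as deposited. Of the exon bases of Adora1, 20.1% overlap Mybph. Of 6 nucleoside transporters tested, 3 were higher in small intestine. Slc28a1, which takes up nucleosides with sodium, was at 45.9 and 33.5 there and at most 4.27 elsewhere (log2 difference 4.55, adjusted p = 8.55e-07). Slc28a2 was at 18.5 and 41.2, with 46.3% of its 31-base words shared with Gm14085. Slc29a1, the carrier that works without sodium, was higher in liver, at 29.1 and 28.0, and in lung, at 20.6 and 18.3, where the other scalings gave 0.21 to 1.64 and 2 of 4 kept the call. Slc29a3 was higher in kidney, at 12.4 and 8.73.

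Xdh, Aox1 and Aox3 need the molybdenum cofactor, and 2 of the 5 genes for its synthesis and sulfuration were higher in liver and 2 lower in kidney, Mocs1 and Mocos, whose calls in kidney held in 1 of the 4 other scalings. Mocs1, which starts the synthesis, was at 30.4 and 35.2 FPKM in liver and 9.06 and 8.21 in kidney. Mocos, which adds the sulfur that Xdh and the aldehyde oxidases need, was at 11.5 and 13.4 in liver, 10.1 and 9.74 in small intestine, 3.69 and 4.30 in lung, and 3.36 and 3.02 in kidney, with a log2 difference of 1.14 in liver (adjusted p = 0.000182) that fell just under the threshold, to 0.99, in 1 other scaling. Mocs2 was higher in small intestine, at 20.5 and 19.5, and Gphn was lower there, at 4.90 and 4.52. Among the other molybdenum enzymes, Marc1 was at 147 and 147 in liver and at most 1.05 elsewhere (log2 difference 6.62, adjusted p = 7.42e-08). Suox, the sulfite oxidase, was at 50.5 and 48.6 in liver and between 4.53 and 27.4 elsewhere, and Marc2 was higher in small intestine, at 98.9 and 71.7.

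For purine synthesis, 13 genes were tested, and 3 were called lower in small intestine, beside 11.3% of all genes. In lung 3 were higher, beside 40.7%, and in liver 2 were higher, beside 6.56%, and 4 lower, beside 32.7%. Paics, which makes an intermediate of the purine ring, was at 79.7 and 67.8 FPKM in kidney, 76.0 and 65.3 in liver, 43.0 and 42.2 in lung, and only 10.3 and 9.87 in small intestine (log2 difference -2.47 there, adjusted p = 2.54e-06). Impdh1, on the way to GMP, was at 44.4 and 55.1 in lung and at most 2.56 elsewhere (log2 difference 4.44, adjusted p = 6.81e-07). Adssl1, on the way to AMP, was at 8.82 and 9.82 in lung and 0.358 and 0.127 in small intestine, where it was lower (log2 difference -2.41). Its call in lung, and that of Prps2 at 13 and 14.2, held in 2 and in 1 of the 4 other scalings, with values down to 0.62 and 0.19. Over the 70 genes of all lists, small intestine had 18 higher and 15 lower, kidney 16 and 16, liver 14 and 27, and lung 10 and 25. The share lower in liver is near the 32.7% of all genes. Median-of-ratios scaling gave 4 higher and 32 lower in lung and 19 and 17 in liver, of 67 tested.

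**Figure D4:**
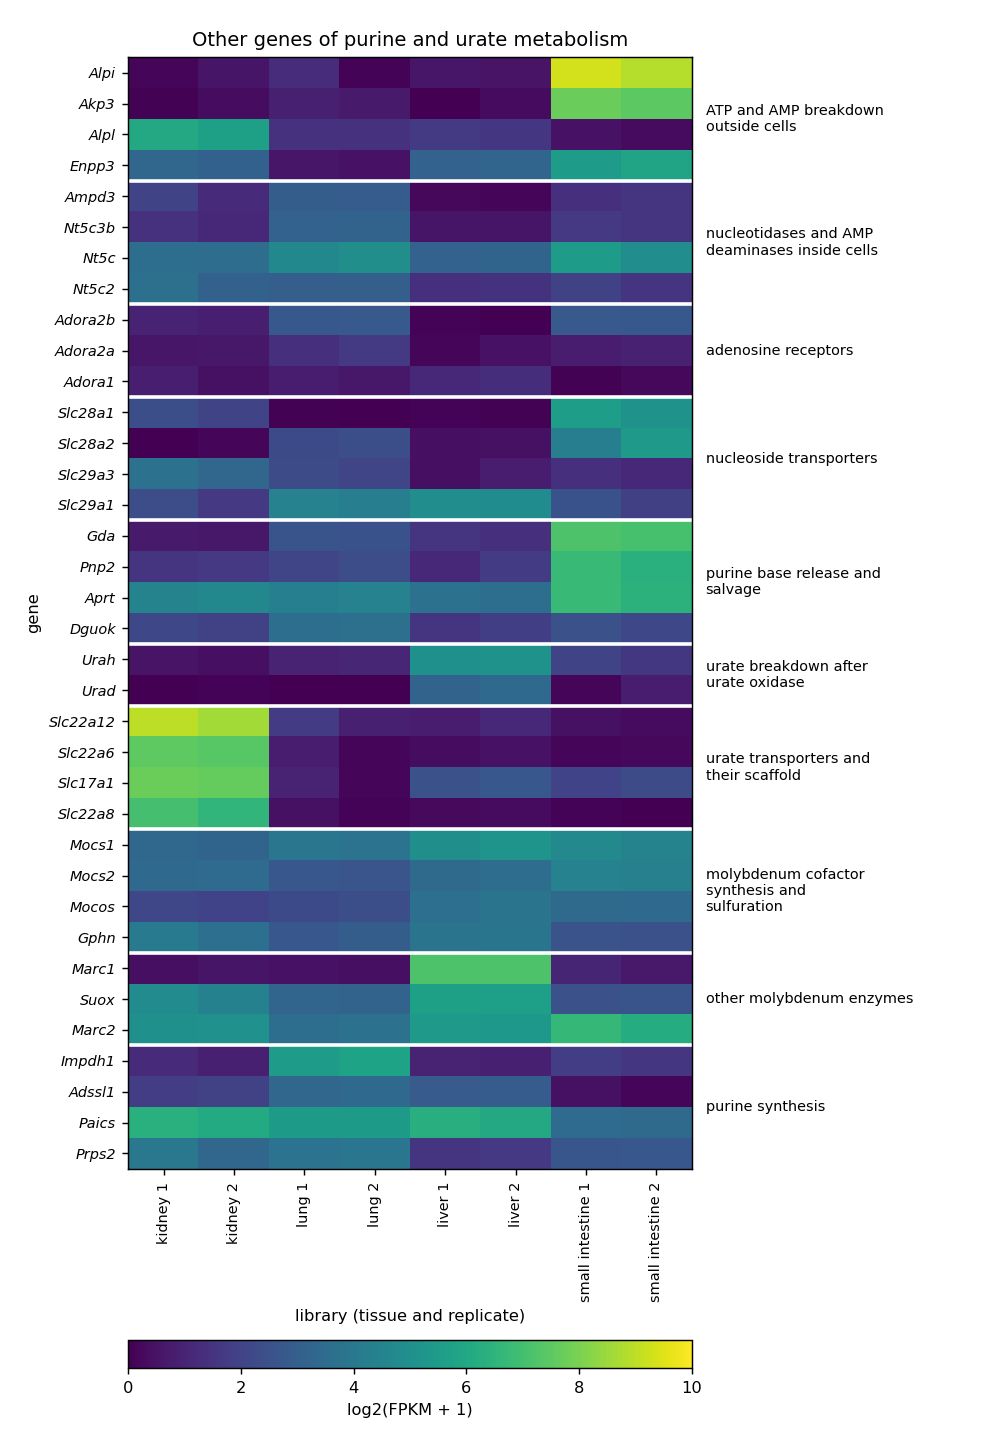
Level of the named genes of the 10 lists in each library, as log2(FPKM + 1) in colour from 0 to 10, with the list at the right of each block. The urate carriers stand out in kidney (Slc22a12 at 518 and 395 FPKM), Alpi, Akp3, Gda, Pnp2 and Aprt in small intestine, and Urah, Urad and Marc1 in liver.

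The genes most like each of the 8 were found by the root mean square difference of log2(FPKM + 1) over the 8 libraries, which share depth and scaling within a library, and are given as a description. Uox had the closest neighbours, Apof at 0.203, C9 at 0.214 and Mup18 at 0.214. Nearest to Ada were Ppp1r14d at 0.43, Oit1 at 0.451 and H2-Q2 at 0.48, and nearest to Xdh were Stap2 at 0.332, Psmb10 at 0.576 and Gsdmd at 0.611. Aox3 was followed by F7 at 0.303, Sec14l4 at 0.422 and C6 at 0.742, and Aox1 by Fam47e at 0.276, Rtp3 at 0.342 and Rnd1 at 0.35, so the adjacent aldehyde oxidases were not among each other's nearest genes on this absolute scale. F7, at 15.3 and 10.6 FPKM in lung and 50.4 and 48.9 in liver, had the pattern of Aox3 in both tissues. Among the nearest to Adk were Insig1 at 0.416 and Suox at 0.505, the latter the sulfite oxidase named above. Nt5e was closest to Lipo3 at 0.344, Rnf145 at 0.351 and Kctd17 at 0.359, and Slc2a9 to Abhd18 at 0.351, Gm19680 at 0.354 and Chn2 at 0.359.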

How the data were processed

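Polyadenylated RNA of 4 tissues (2 libraries each, tissue and number from the labels) was sequenced by the study. Per the paper's methods and the submitters' processing notes, the authors mapped reads to GRCm38 with STAR 2.5.3a and deposited FPKM values made with DESeq2. How reads were counted, and with which use of strand, is not given in the sources used here. FPKM takes length and depth into account, yet very abundant transcripts push down the values of all others in the same library.

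Gene coordinates and exon lengths came from GENCODE M21, in which 51844 symbols matched a single gene. The depth of a library was taken from the commonest low value of FPKM times exon length, read as 1 read, and FPKM times exon length times depth gave the reads behind a value. Up to 50 reads, the share that came out whole to within 0.02 was 94.5% to 96.1% in a library. Intervals (95%, Clopper-Pearson) and the floor of 3 reads cover counting error only, since amplified reads are not independent molecules.

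The 16328 genes that reached an FPKM of 1 in 2 libraries were tested as log2(FPKM + 1), a scale that understates differences of low genes, with limma 3.58.1 (lmFit, eBayes with trend) in R 4.3.3, all 8 libraries in 1 fit, with Benjamini-Hochberg adjustment over all genes of a comparison. Python 3.11.15, numpy 2.4.6, pandas 2.3.3, scipy 1.17.1, matplotlib 3.10.9 and Biopython 1.88 were used for the rest. The limma step was run on simulated data, with an outcome that is not reported here. Alternatives changed the pseudocount, filter, scaling, trend, replicate block and libraries, and limma-voom on the recovered reads was added after seeing the data.

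The genes described, the lists and the alternatives were chosen with earlier results of these data known. Genes named beside the 8 were, per list, up to 4 with the widest range of tissue means, all of the lists of urate breakdown and other molybdenum enzymes, and the 3 nearest profiles of each of the 8, of which 1 is not reported here. Marker lists of 12 cell types were summed per library.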

Additional observations from a re-analysis of the deposited data

How the results depend on the processing

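Each of the 8 genes was followed in its highest tissue against the mean of the other 3 and between the 3 pairs of tissues next to each other in its order. Of these 32 differences under 17 alternative settings, 507 of 544 values kept their direction and side of the threshold, 25 changed side only, and 12 changed sign. The calls of Ada in small intestine and of Adk, Uox, Aox1 and Aox3 in liver against the other 3 tissues held in all 17. Outside these 32, the sign also turned over the scalings for 2 uncalled differences from the mean of the other 3 tissues, Adk in kidney (-0.25, up to 0.31) and Xdh in liver (-0.54, up to 0.47). None of the 12 sign changes concerned a called difference except that of Xdh for lung minus liver, at -0.28 with median-of-ratios scaling against 1.31. The others were Ada for kidney minus liver, at -0.07 with median-of-ratios scaling and -0.12 with quantile normalization, Adk and Nt5e for kidney minus lung, at -0.18 and -0.15 with the same sum of FPKM, Uox for kidney minus lung at 0.09 with quantile normalization and for kidney minus small intestine at -0.02 without kidney replicate 2 (-0.02 to 0.48 over leave-one-out fits), and Slc2a9 for liver minus small intestine, at 0.66 with median-of-ratios scaling, 0.04 with the same sum, 0.63 with quantile normalization, 0 without liver replicate 1 and 0.06 without small intestine replicate 1 (-0.14 to 0.06 over leave-one-out fits).

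Counts of the 8 genes called moved most in lung. For lung against the mean of the other 3, the 4 higher became 0 with median-of-ratios scaling, 2 with the same sum without mitochondrial genes and pseudogenes and 1 with quantile normalization, and the 1 lower became 4, 2 and 4 in the same order, 2 with a pseudocount of 0.1 and 2 with limma-voom, with 1 to 2 over leave-one-out fits. For kidney against lung the 0 higher became 2 with median-of-ratios scaling and 2 with quantile normalization, and for lung against liver the 3 higher became 1 and 1. For kidney against small intestine the 1 higher became 2 with a pseudocount of 0.1, with median-of-ratios scaling, with the same sum without mitochondrial genes, with quantile normalization and with limma-voom, and was 1 to 2 over leave-one-out fits. All other counts of the 8 genes stayed within 1.5 times. So did the sum of 141 calls of the lists over the 4 tissues, but not its split, since the 10 higher in lung became 4 with median-of-ratios scaling, 3 with quantile normalization and 16 with the same sum, and the 27 lower in liver became 17, 17 and 27 in the same order. Over all genes, median-of-ratios scaling gave 4963 calls in lung against 8001. The cause of these shifts was not tested. A tissue left with 1 library in a leave-one-out fit is assumed to vary like the others.

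Same-numbered libraries did not deviate together, with correlations of their deviations between -0.217 and 0.0528 over 6 pairs of tissues. The paper took all 4 tissues from each mouse, but no source ties the replicate numbers to mice. The main fit therefore treats the tissues as unpaired, although libraries of different tissues can share a mouse. With the replicate number as a block, 4039, 8009, 6406 and 4086 genes were called in kidney, lung, liver and small intestine, against 4038, 8001, 6405 and 4087 without the block, and the block changed 0 calls of the 8 genes. With 2 libraries per tissue, spread within a tissue is borrowed across the 4 tissues, and a value under 3 reads, here that of Aox1 in kidney replicate 2, cannot be told from 0.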
